A study of Homo sapiens with 6 samples.

Results

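The genes described here are 35 genes of cholesterol and fatty acid synthesis under the sterol regulatory element-binding proteins (SREBPs), out of 58735 gene identifiers counted in the series. They were chosen by name from the known pathway. The rule itself uses no measured value, but the choice was made with earlier results of these data known. They comprise 5 regulators, 19 genes of the sterol route and 11 of the fatty acid route. Messenger RNA was sequenced from RKO, an established human colorectal carcinoma cell line, which had been given EZA (3 libraries) or its vehicle DMSO (3 libraries). The study names the replicates biological without saying whether they were separate cultures, and p-values cover the spread between these libraries alone. What EZA stands for, how much was used and for how long is not stated in the labels. All 6 libraries came from this single line, with no other alleles or agents named.

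SREBPs are transcription factors made as precursors in the membrane of the endoplasmic reticulum. When membrane sterol is low, the escort protein SCAP carries them to the Golgi, where proteases release the part that enters the nucleus. When sterol is plentiful, INSIG proteins hold SCAP back. SREBF2 encodes the form best known for cholesterol synthesis and SREBF1 encodes the forms best known for fatty acid synthesis. In tumour cell lines both routes supply membrane lipid. Activity of SREBPs depends on this cleavage, which messenger RNA levels do not measure.

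Total counts ran from 14070611 to 18840954 in EZA libraries and from 15343614 to 15778418 in DMSO libraries. EZA replicate 3 stood apart, with 0.203% of its counts on mitochondrial genes, against 4.29% and 3.68% in EZA replicates 1 and 2 and 4.45% to 5.02% in DMSO libraries. The epithelial markers KRT8, KRT18 and EPCAM were detected, with a summed level over the list of 6 of 143 to 167 counts scaled to library size (CPM) in EZA and 146 to 165 CPM in DMSO, while CDH1 and CDH17 had 0 counts in every library. Of 5 intestinal markers CDX2 alone was abundant enough to be tested, and the list summed to 11.5 to 21.3 CPM in EZA and 19.1 to 20.03 CPM in DMSO. Marker lists of hepatocytes, adipocytes, fibroblasts and endothelial cells each summed to at most 0.436 CPM in EZA and 0.587 CPM in DMSO, and that of leukocytes to at most 2.24 CPM in EZA and 1.61 CPM in DMSO. In bulk RNA, fewer cells of a type and less RNA per cell cannot be told apart, and CPM are shares of the counted RNA.

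The SREBP genes did not move one way as a group. Of the 34 that were abundant enough to be tested, 8 differed between EZA and DMSO at an adjusted p below 0.05 (edgeR's quasi-likelihood test, Benjamini-Hochberg adjustment over 13503 genes). These were 23.5% of the members tested, against 17.7% of all genes tested. SCAP, MVD, LSS, TM7SF2 and ACSS2 rose (5 genes, with 9.89% of all genes called higher), and SQLE, SCD and ELOVL6 fell (3 genes, with 7.82% of all genes called lower). The median log2 fold change was -0.12 over the members and -0.01 over all genes tested, and 14 members had a positive and 20 a negative fold change.

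The changes were modest in size. TM7SF2 alone passed the study's own threshold of a 2-fold change at an unadjusted p below 0.05, which 5.73% of all genes passed (3.77% higher and 1.96% lower). In 18 of the 34 tested members the groups did not overlap, where the share over all genes was 42.7%. In 8 of the 34 every EZA library lay above every DMSO library and in 10 of the 34 below, where 21% and 21.7% of all genes were so placed. The remaining 26 tested members did not pass the adjusted threshold, which does not show that they were equal. With scaling by library size alone, 3 members were called higher and 4 lower, and over all genes the split of 1336 higher and 1056 lower became 1059 higher and 1270 lower.

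**Figure D1:**
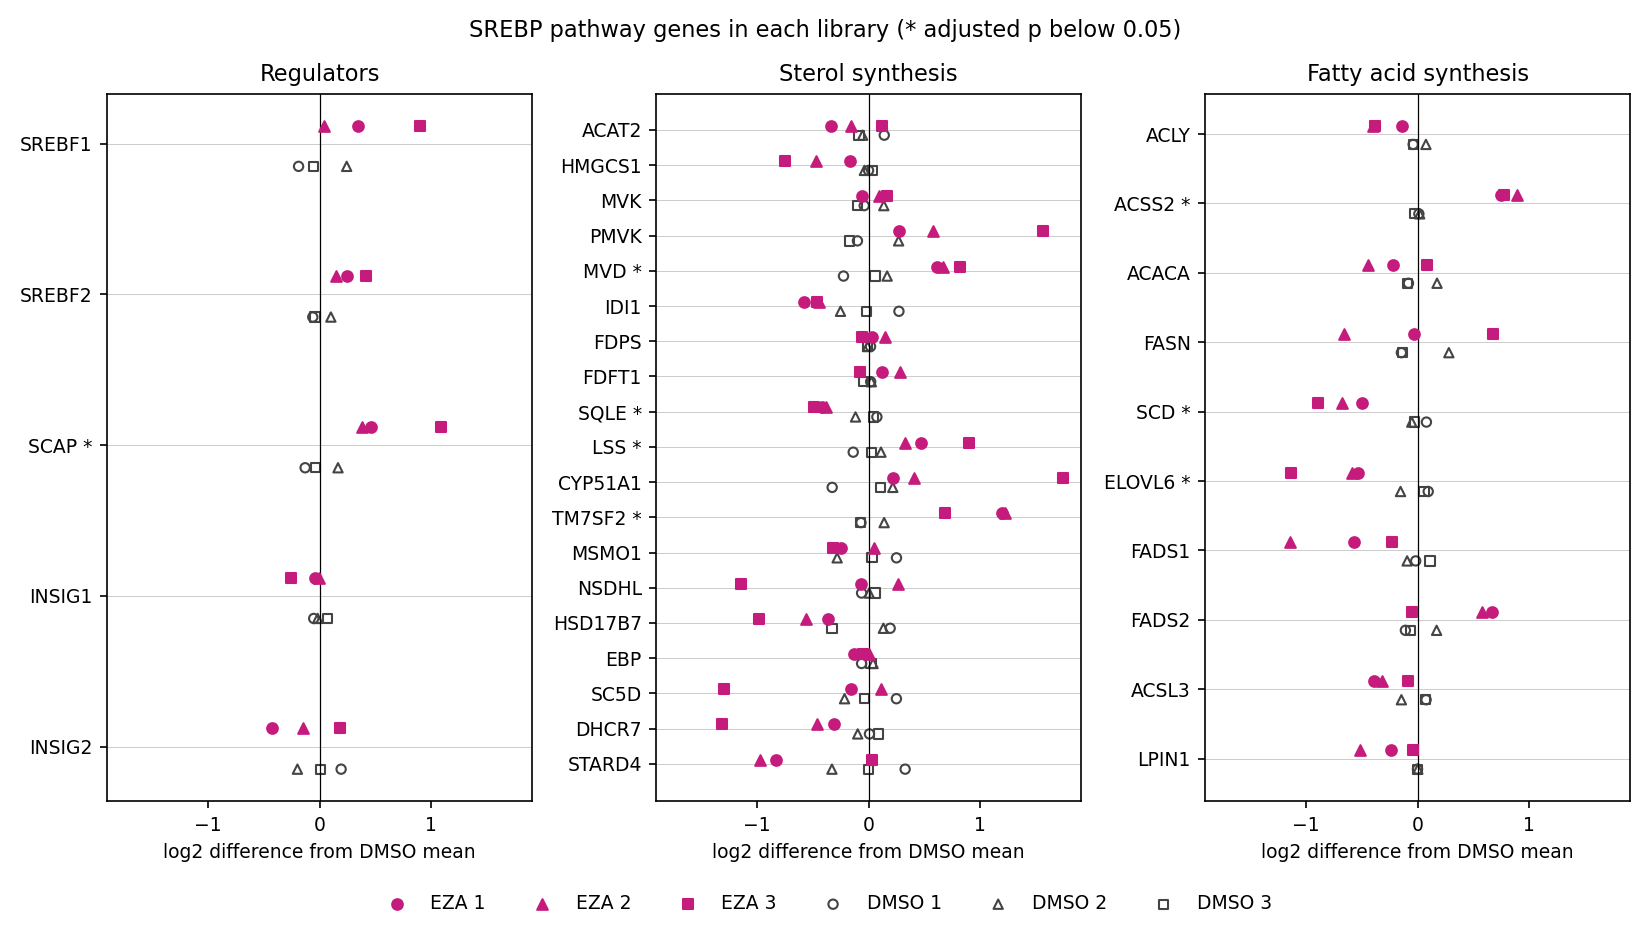
Log2 difference of each EZA library (filled) and each DMSO library (open) from the mean of the DMSO libraries, for the 34 tested members by role, with a star at those with an adjusted p below 0.05. ACSS2, TM7SF2 and MVD have all 3 EZA libraries above the DMSO libraries, SCD, ELOVL6 and SQLE have all 3 below, and EZA replicate 3 lies far above the other EZA libraries for CYP51A1 and PMVK and far below them for SC5D, DHCR7 and NSDHL.

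Promoter sequence is shown for the 4 called genes with the smallest adjusted p, because members that moved in opposite directions can be set side by side. The windows are those of RefSeq on GRCh38.p14 and run from 250 bases before to 50 bases after an annotated start, 5′ to 3′ on the gene's strand. ACSS2 has a window at chr20:34874739-34875038 and one at chr20:34876362-34876661 (both plus strand), TM7SF2 at chr11:65111622-65111921 (plus), SCD at chr10:100346983-100347282 (plus) and MVD at chr16:88663042-88663341 (minus). Capitals mark CCAAT or its reverse complement, the letters bound by NF-Y, a factor known to act beside SREBPs.
ACSS2 first window: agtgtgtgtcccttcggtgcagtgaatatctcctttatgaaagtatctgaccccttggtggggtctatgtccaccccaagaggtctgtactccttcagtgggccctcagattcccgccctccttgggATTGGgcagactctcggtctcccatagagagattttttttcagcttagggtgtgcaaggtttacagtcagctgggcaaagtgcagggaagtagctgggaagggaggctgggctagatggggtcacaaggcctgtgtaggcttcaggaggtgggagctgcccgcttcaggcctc
ACSS2 second window: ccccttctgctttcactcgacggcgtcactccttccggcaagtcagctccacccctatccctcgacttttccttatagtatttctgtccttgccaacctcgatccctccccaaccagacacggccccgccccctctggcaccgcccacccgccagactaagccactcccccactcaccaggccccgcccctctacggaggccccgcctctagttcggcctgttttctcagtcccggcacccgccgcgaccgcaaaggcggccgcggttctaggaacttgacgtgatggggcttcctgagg
TM7SF2: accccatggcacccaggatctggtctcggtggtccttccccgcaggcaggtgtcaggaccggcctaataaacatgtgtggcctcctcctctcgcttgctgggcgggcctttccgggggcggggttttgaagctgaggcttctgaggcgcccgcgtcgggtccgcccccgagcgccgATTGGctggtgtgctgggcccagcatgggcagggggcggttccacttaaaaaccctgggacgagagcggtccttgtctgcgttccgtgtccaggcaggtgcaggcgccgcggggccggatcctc
MVD: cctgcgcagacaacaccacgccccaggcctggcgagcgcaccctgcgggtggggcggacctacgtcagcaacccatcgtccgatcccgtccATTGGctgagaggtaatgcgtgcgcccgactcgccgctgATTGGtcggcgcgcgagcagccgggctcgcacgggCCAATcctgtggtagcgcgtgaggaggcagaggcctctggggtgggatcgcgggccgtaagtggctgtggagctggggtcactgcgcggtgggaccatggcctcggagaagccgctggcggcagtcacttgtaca
SCD: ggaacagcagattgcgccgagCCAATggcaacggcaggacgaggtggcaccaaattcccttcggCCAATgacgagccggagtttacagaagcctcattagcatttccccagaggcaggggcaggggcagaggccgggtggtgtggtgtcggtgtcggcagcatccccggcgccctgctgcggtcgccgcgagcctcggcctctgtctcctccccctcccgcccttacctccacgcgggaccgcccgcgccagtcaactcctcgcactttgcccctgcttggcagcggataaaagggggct
The first ACSS2 window and the TM7SF2 window each hold 1 such match, the MVD window 3 and the SCD window 2, and the second ACSS2 window holds 0. The letters thus occur both in genes that rose and in SCD, which fell. None of these windows holds TCACNCCA, a core of the classic sterol regulatory element, or CACGTG, the E-box, on either strand.

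Over the 31 members with a RefSeq window, 23 had CCAAT in at least 1 window on either strand (74.2%), against 39.7% of 27305 genes in the table. The genes in the table were not limited by expression or gene type, so the shares here and below are over unlike sets. TCACNCCA was found in SREBF2, MVK and MSMO1 (9.68% of members, 4.81% of all genes), of which none was called. CACGTG was found in SCAP, INSIG1, LSS, SC5D and ELOVL5 (16.1% of members, 8.77% of all genes), of which SCAP and LSS rose. CCAAT can share letters with the end of TCACNCCA, some genes have several windows, and a match describes the letters and does not show a bound site.

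Among the regulators, SCAP rose and the others did not pass the test. SCAP (GRCh38 chromosome 3, 47413681 to 47477126, minus strand) had 194, 183 and 298 CPM in EZA replicates 1 to 3, against 128, 158 and 137 CPM in DMSO replicates 1 to 3. The groups did not overlap, with EZA replicate 3 far above the other EZA libraries. Its log2 fold change was 0.67 ± 0.20 (SE, n = 3 each; 95% interval 0.23 to 1.12) with an adjusted p of 0.0457 in edgeR's test. SCAP is the escort protein, and its product was not measured.

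SREBF2 (chromosome 22, 41833105 to 41907306, plus strand) had 261, 244 and 294 CPM in EZA and 211, 236 and 214 CPM in DMSO. All EZA libraries lay above all DMSO libraries, by a small margin between EZA replicate 2 and DMSO replicate 2. The log2 fold change of 0.27 ± 0.13 did not pass (SE; adjusted p = 0.165 in edgeR's test). SREBF1 (chromosome 17, 17810399 to 17837002, minus strand) had 116, 94.4 and 171 CPM in EZA and 80.6, 109 and 88.4 CPM in DMSO. These groups overlapped, since EZA replicate 2 lay below DMSO replicate 2. Its log2 fold change was 0.46 ± 0.22 (SE; adjusted p = 0.173 in edgeR's test, 95% interval -0.04 to 0.96). SREBF1 shares 556 bases with RAI1 on the opposite strand, and strand was not recorded.

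Neither of the sterol-dependent brakes passed the test. INSIG1 (chromosome 7, 155297776 to 155310235, plus strand), itself a known SREBP target, had 28.8, 29.4 and 24.7 CPM in EZA and 28.5, 29.2 and 31.0 CPM in DMSO. EZA replicates 1 and 2 lay within the DMSO range and EZA replicate 3 below it. The log2 fold change was -0.10, with a 95% interval of -0.40 to 0.20 (adjusted p = 0.637 in edgeR's test). INSIG2 (chromosome 2, 118088452 to 118110997, plus strand), the isoform less dependent on SREBPs, had 11.5, 13.97 and 17.5 CPM in EZA and 17.7, 13.5 and 15.5 CPM in DMSO. The groups overlapped, and the log2 fold change was -0.12 with an interval of -0.56 to 0.31 (adjusted p = 0.689 in edgeR's test).

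The balance within each pair of regulators was compared on length-adjusted levels (FPKM). Log2 of SREBF1 over SREBF2 was -1.19 ± 0.30 in EZA and -1.35 ± 0.14 in DMSO (SD, n = 3 each), a difference of 0.16 (two-sided exact permutation test, p = 0.6). Log2 of INSIG1 over INSIG2 was 1.08 ± 0.43 in EZA and 1.05 ± 0.22 in DMSO (SD, n = 3 each), a difference of 0.03 (exact permutation p = 0.9). With 3 libraries against 3, the smallest p this test allows is 0.1. In both groups SREBF2 was the more abundant SREBP transcript and INSIG1 the more abundant INSIG transcript in every library.

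The early sterol route leads through mevalonate to the isoprenoid units. MVD, the decarboxylase that yields isopentenyl diphosphate, rose. MVD (chromosome 16, 88651935 to 88663161, minus strand) had 43.9, 45.5 and 50.5 CPM in EZA and 24.5, 32.1 and 29.8 CPM in DMSO. The groups were well apart, at 46.6 ± 3.42 CPM in EZA and 28.8 ± 3.92 CPM in DMSO (SD, n = 3 each). This gave a log2 fold change of 0.70 ± 0.15 (SE; 95% interval 0.36 to 1.03; adjusted p = 0.0174 in edgeR's test).

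Neighbouring steps did not pass, and their fold changes had both signs. PMVK, phosphomevalonate kinase, the step before MVD, had 31.3, 38.6 and 76.7 CPM in EZA and 24.2, 31.2 and 23.0 CPM in DMSO. Its level in EZA rested largely on replicate 3, and the log2 fold change of 0.90 ± 0.31 had an adjusted p of 0.0757 in edgeR's test (SE). IDI1, the isomerase that follows MVD, had 25.01, 27.5 and 27.1 CPM in EZA and 45.1, 31.3 and 36.8 CPM in DMSO. Every EZA library lay below every DMSO library, yet the log2 fold change of -0.51 ± 0.16 had an adjusted p of 0.0577 (edgeR's test; SE). HMGCS1, which makes HMG-CoA, had 23.4, 18.9 and 15.6 CPM in EZA and 26.3, 25.7 and 27.0 CPM in DMSO, again without overlap and without passing (log2 fold change -0.45; adjusted p = 0.0937 in edgeR's test).

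The other genes of this stretch stayed within 0.12 of 0 on the log2 scale. The thiolase ACAT2 had a log2 fold change of -0.12, mevalonate kinase MVK 0.06 and farnesyl diphosphate synthase FDPS 0.04, with adjusted p from 0.613 to 0.836 in edgeR's test. FDPS had 43.5 to 49.97 CPM in EZA and 44.9 to 45.8 CPM in DMSO, and its 95% interval was -0.23 to 0.32. ACAT2 shares sequence with TCP1 and MVK with MMAB in the annotation, and how shared reads were counted is not given.

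At the committed steps to sterols, SQLE fell and LSS rose. FDFT1, squalene synthase, did not pass, with 163, 182 and 142 CPM in EZA and 151, 152 and 145 CPM in DMSO (log2 fold change 0.12; adjusted p = 0.547 in edgeR's test). SQLE, squalene epoxidase, an oxygen-using and rate-limiting step, had 100.2, 103 and 95.4 CPM in EZA and 141, 124 and 138 CPM in DMSO. Its groups did not overlap, at 99.6 ± 3.87 CPM in EZA and 134 ± 9.37 CPM in DMSO (SD, n = 3 each). This was a log2 fold change of -0.43 ± 0.12 (SE; 95% interval -0.70 to -0.17; adjusted p = 0.0369 in edgeR's test).

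LSS, lanosterol synthase, which closes the ring of the product of SQLE, went the other way. LSS (chromosome 21, 46188141 to 46228824, minus strand) had 108, 98.1 and 146 CPM in EZA and 71.1, 84.5 and 79.6 CPM in DMSO. The groups did not overlap, and EZA replicate 3 was the highest library. Its log2 fold change was 0.58 ± 0.17 (SE; 95% interval 0.20 to 0.96; adjusted p = 0.0443 in edgeR's test).

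After lanosterol, TM7SF2 rose and no other enzyme passed. TM7SF2 (chromosome 11, 65111845 to 65116384, plus strand), a sterol reductase of the endoplasmic reticulum, had 64.9, 66.3 and 45.5 CPM in EZA and 27.0, 31.2 and 26.9 CPM in DMSO. Even the lowest EZA library, replicate 3, lay above the highest DMSO library. The means were 58.9 ± 11.7 CPM in EZA and 28.3 ± 2.43 CPM in DMSO (SD, n = 3 each). Its log2 fold change of 1.06 ± 0.17 was the largest of the members called (SE; 95% interval 0.66 to 1.45; adjusted p = 0.00809 in edgeR's test). TM7SF2 shares 18 bases with VPS51 on the same strand, and VPS51 also rose (log2 fold change 0.59; adjusted p = 0.0284 in edgeR's test), a shared source that was not tested.

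The same reduction can be made by LBR, the lamin B receptor. The ratio of TM7SF2 to LBR in FPKM was 1.60, 1.53 and 0.976 in EZA and 0.439, 0.594 and 0.474 in DMSO. LBR itself did not pass (log2 fold change -0.39; adjusted p = 0.0622 in edgeR's test). In DMSO the LBR transcript was the more abundant one in every library, and in EZA replicates 1 and 2 the TM7SF2 transcript was. This ratio was taken up because TM7SF2 had changed, so it is given without a test.

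Among the other steps after lanosterol, CYP51A1, DHCR7, NSDHL and SC5D spread more widely in EZA than in DMSO, with replicate 3 farthest from the other EZA libraries, while EBP was tight in both groups. CYP51A1, lanosterol demethylase, had 20.8, 23.7 and 59.8 CPM in EZA and 14.2, 20.7 and 19.2 CPM in DMSO (log2 fold change 0.94 ± 0.38, SE; adjusted p = 0.114 in edgeR's test). It shares 108 bases with AKAP9 on the opposite strand. DHCR7, the last reductase, had 36.7, 33.02 and 18.2 CPM in EZA and 45.7, 42.5 and 48.3 CPM in DMSO (log2 fold change -0.63; adjusted p = 0.0927 in edgeR's test). NSDHL had 34.1, 43.1 and 16.1 CPM in EZA and 34.3, 35.9 and 37.3 CPM in DMSO, so that replicate 2 lay above and replicate 3 below the DMSO range.

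HSD17B7, a reductase that works with NSDHL in removing methyl groups, had 7.68, 6.68 and 4.95 CPM in EZA and 11.3, 10.9 and 7.86 CPM in DMSO. All EZA libraries were lower, but the log2 fold change of -0.63 did not pass (adjusted p = 0.0796 in edgeR's test). The desaturase SC5D, with -0.34, the oxidase MSMO1, with -0.18, and the isomerase EBP, with -0.06 on the log2 scale, had adjusted p from 0.469 to 0.764 in edgeR's test. After correction for GC content and length without EZA replicate 3, SC5D turned to 0.42. STARD4, a carrier of sterol between membranes, had 9.97, 9.001 and 18.2 CPM in EZA and 22.4, 14.2 and 17.8 CPM in DMSO, with groups that overlapped through EZA replicate 3 (log2 fold change -0.56; adjusted p = 0.198 in edgeR's test).

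In the fatty acid route, the enzyme with the smallest adjusted p of all members was ACSS2, which makes acetyl-CoA from acetate in the cytosol and nucleus. ACSS2 (chromosome 20, 34872146 to 34927962, plus strand) had 68.1, 75.2 and 69.6 CPM in EZA and 40.9, 41.1 and 39.7 CPM in DMSO. Both groups were tight, at 70.9 ± 3.74 CPM in EZA and 40.5 ± 0.733 CPM in DMSO (SD, n = 3 each). Its log2 fold change was 0.81 ± 0.12 (SE; 95% interval 0.54 to 1.07; adjusted p = 0.00535 in edgeR's test).

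ACLY makes acetyl-CoA from citrate instead, and its fold change had the opposite sign. ACLY had 376, 313 and 317 CPM in EZA and 402, 435 and 403 CPM in DMSO. The groups did not overlap, but the log2 fold change of -0.30 ± 0.13 did not pass (SE; adjusted p = 0.135 in edgeR's test). The ratio of ACSS2 to ACLY in FPKM was 0.176, 0.232 and 0.213 in EZA and 0.0985, 0.0914 and 0.0955 in DMSO, given without a test because it was taken up after ACSS2 had been seen to change. ACLY remained the more abundant of these transcripts in every library.

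The core of the route did not pass in either direction. ACACA, acetyl-CoA carboxylase, had 132, 113 and 163 CPM in EZA and 145, 174 and 144 CPM in DMSO (log2 fold change -0.18; adjusted p = 0.451 in edgeR's test). FASN, fatty acid synthase, had 778, 504 and 1271 CPM in EZA and 719, 966 and 725 CPM in DMSO. EZA replicate 2 was the lowest and replicate 3 the highest of all 6 libraries. With such spread, the log2 fold change of 0.08 had a 95% interval of -0.60 to 0.76 (adjusted p = 0.874 in edgeR's test).

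SCD and ELOVL6, which desaturate and lengthen fatty acids made by FASN, fell. SCD (chromosome 10, 100347233 to 100364826, plus strand), stearoyl-CoA desaturase, had 279, 246 and 212 CPM in EZA and 415, 379 and 386 CPM in DMSO. The groups were far apart, at 245 ± 33.5 CPM in EZA and 393 ± 19.2 CPM in DMSO (SD, n = 3 each). The log2 fold change was -0.68 ± 0.14 (SE; 95% interval -0.995 to -0.37; adjusted p = 0.0156 in edgeR's test). ELOVL6 (chromosome 4, 110045846 to 110199199, minus strand), which lengthens palmitate to stearate, had 81.8, 78.5 and 53.8 CPM in EZA and 126, 106 and 123 CPM in DMSO. No EZA library reached the DMSO range, and EZA replicate 3 was the lowest. Its log2 fold change was -0.73 ± 0.17 (SE; 95% interval -1.13 to -0.34; adjusted p = 0.0261 in edgeR's test). SCD5, a second stearoyl-CoA desaturase outside the 35 genes, did not pass, at 73.7 ± 8.11 CPM in EZA and 74.1 ± 0.540 CPM in DMSO (SD, n = 3 each; adjusted p = 0.974 in edgeR's test).

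Desaturases and elongases of polyunsaturated fatty acids gave less. ELOVL5 had 0 counts in all 6 libraries, and a count of 0 allows a level of up to 0.159 to 0.213 CPM per library in EZA and 0.190 to 0.196 CPM per library in DMSO (3 counts of the total, counting error only). FADS1 was scarce, at 1.71, 1.10 and 2.19 CPM in EZA and 2.57, 2.43 and 2.81 CPM in DMSO, without overlap (log2 fold change -0.65; adjusted p = 0.157 in edgeR's test). FADS2 had 45.2, 42.4 and 27.4 CPM in EZA and 26.3, 31.9 and 27.2 CPM in DMSO, with EZA replicate 3 inside the DMSO range (log2 fold change 0.43; adjusted p = 0.160 in edgeR's test). FADS1 and FADS2 share 490 bases in the annotation.

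Use of fatty acids was represented by ACSL3, which activates them to acyl-CoA on the endoplasmic reticulum, and LPIN1, which makes diacylglycerol. ACSL3 had 63.7, 67.2 and 78.7 CPM in EZA and 88.3, 75.7 and 87.8 CPM in DMSO (log2 fold change -0.26; adjusted p = 0.198 in edgeR's test). LPIN1 had 185, 152 and 212 CPM in EZA and 217 to 218 CPM in all 3 DMSO libraries. Every EZA library was lower, but the log2 fold change of -0.25 did not pass (adjusted p = 0.241 in edgeR's test).

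By role, 1 of 5 regulators rose and none of the others passed. Of 19 sterol genes 3 rose and 1 fell, and of 10 tested fatty acid genes 1 rose and 2 fell. The background shares were 9.89% called higher and 7.82% called lower. Each class holds few genes and was not tested against these shares, so the counts do not set the classes apart. Median log2 fold changes were 0.27, -0.12 and -0.26 in these classes, beside -0.01 for all genes. After correction for GC content and length they were 0.08, -0.12 and -0.24, beside 0.01 for all genes. In single EZA libraries without this correction, the median of the sterol genes was -0.13, 0.09 and -0.06 relative to the DMSO mean. That of the fatty acid genes was -0.23, -0.48 and -0.07.

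**Figure D2:**
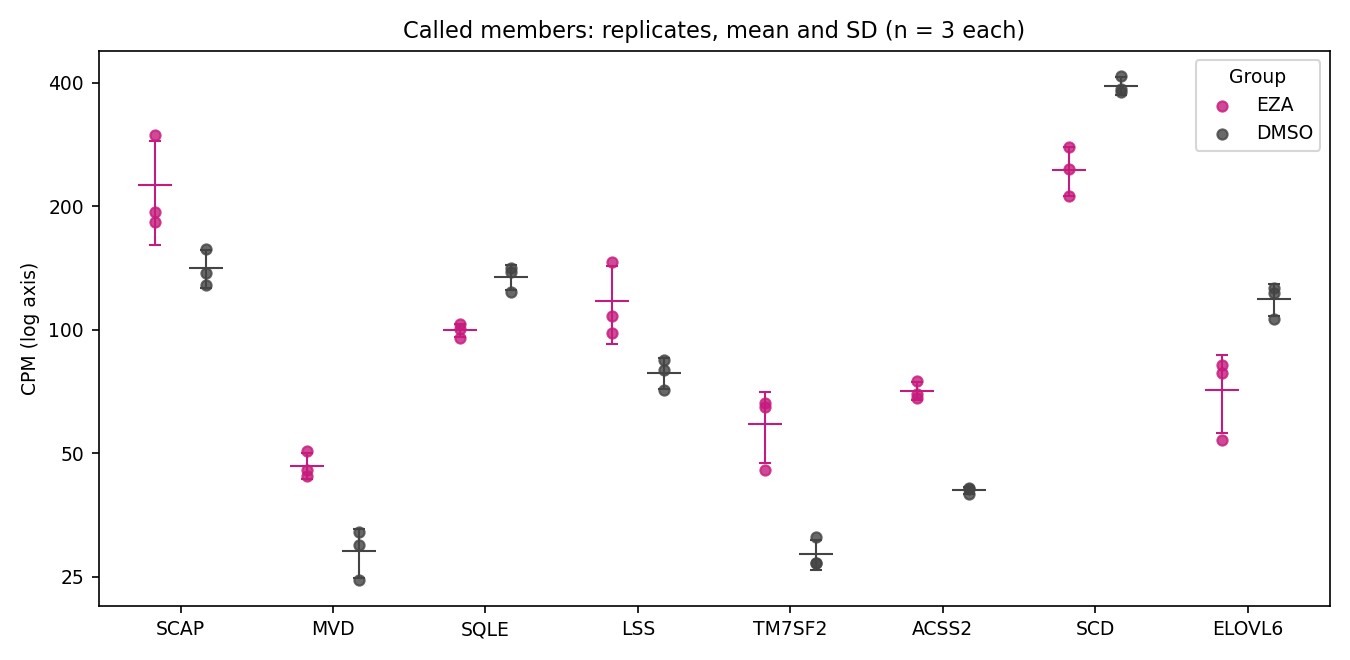
CPM of the 8 called members in each library (points, log axis), EZA left of DMSO, with the mean and SD of each group (bars, n = 3 each). No EZA library reaches into the DMSO range for any of the 8 genes. By SD, the EZA libraries are more spread than the DMSO libraries for all of them but MVD and SQLE.

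Levels of different genes can be set in order per transcript length. In EZA the mean FPKM was highest for FASN with 89.6, followed by ACLY with 63.6 and SCD with 45.3, against 84.2, 77.7 and 72.0 FPKM in DMSO. FASN and ACLY overlapped in their ranges in both groups, while SCD lay apart below ACLY in EZA and overlapped it in DMSO. Down the whole order, 26 of 33 neighbouring pairs overlapped in EZA and 26 of 33 in DMSO, so their order there is not beyond the spread. HSD17B7 and FADS1, the lowest pair, lay apart in both groups. SQLE had 22.9 FPKM in EZA and 30.6 FPKM in DMSO, and SREBF2 34.8 FPKM in EZA and 28.7 FPKM in DMSO. FADS1 was the lowest detected member, at 0.161 FPKM in EZA and 0.249 FPKM in DMSO.

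**Figure D3:**
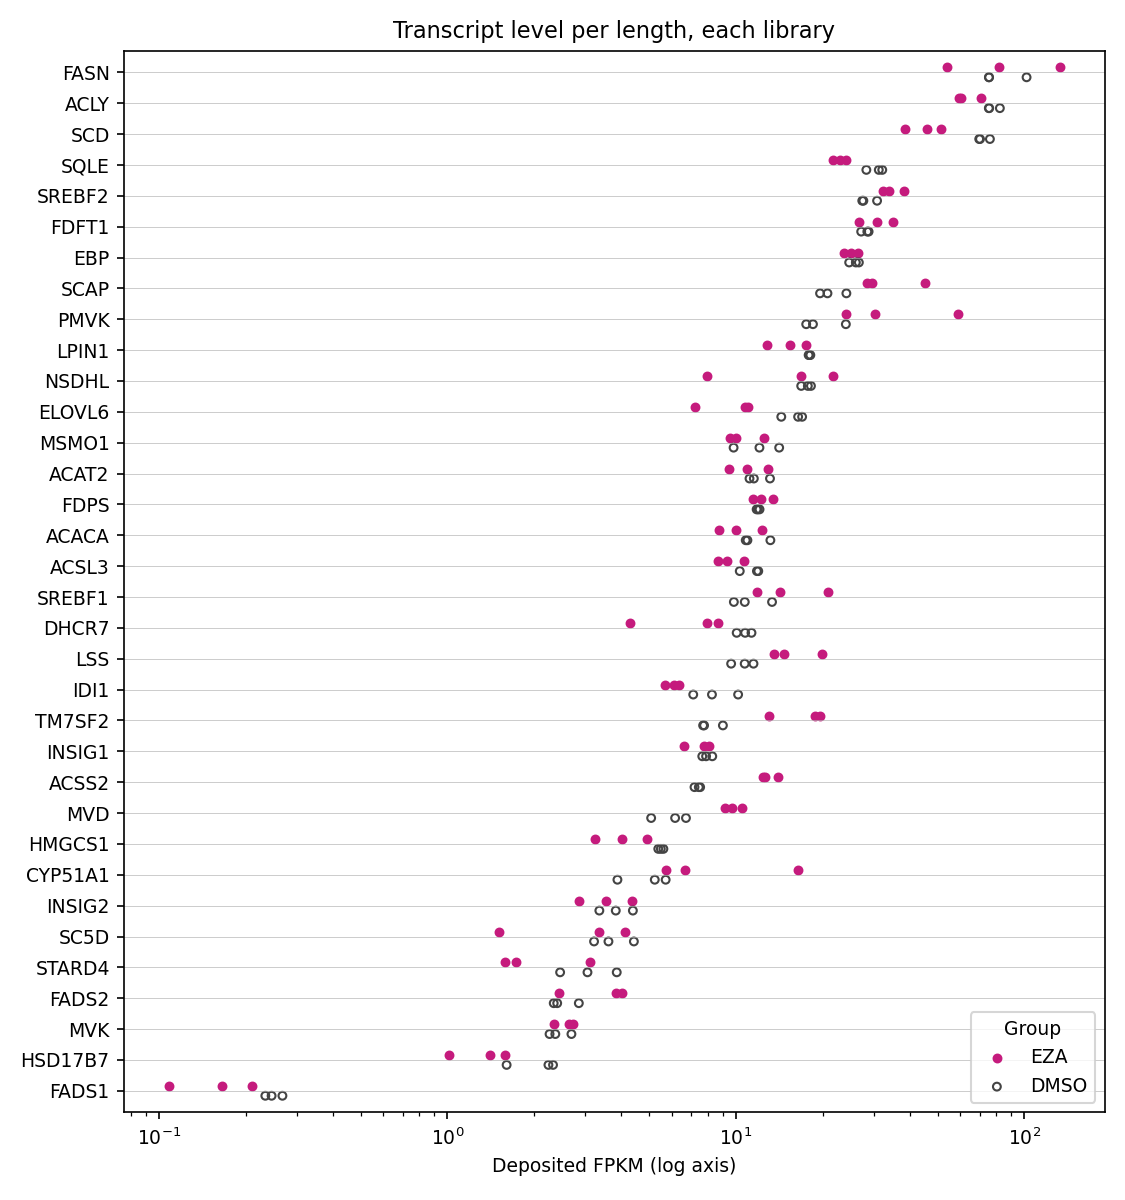
Deposited FPKM (log10 axis) of each detected member in each library, ordered by its DMSO mean. The members span from FASN near the top to FADS1 at 0.161 FPKM in EZA and 0.249 FPKM in DMSO.

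Base composition moved with the fold changes of the members, as it did across all genes. The called members that rose had a transcript GC content of 53.8% to 65.5%, and those that fell 41.4% to 46.5%. Over the 34 tested members, log2 fold change and GC content had a Spearman's rho of 0.57, and over 11430 protein-coding genes 0.54, given as descriptions over genes that share the same libraries. Genes above 60% GC had a median log2 fold change of 0.44 and those up to 40% had -0.31.

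With the trend on GC content and length removed, 3 members were called, which was 8.82% of those tested, against 11.4% of all genes. ACSS2 remained higher, with a log2 fold change of 0.70 (adjusted p = 0.00658), and SQLE and SCD remained lower, with -0.35 (adjusted p = 0.0370) and -0.56 (adjusted p = 0.0233, all edgeR's test). TM7SF2 missed the threshold with 0.63 (adjusted p = 0.0576), and so did LSS with 0.38 (adjusted p = 0.100), SCAP with 0.32 (adjusted p = 0.191), MVD with 0.16 (adjusted p = 0.269) and ELOVL6 with -0.45 (adjusted p = 0.134). All 8 kept their direction. Among the members that were not called, 8 changed the sign of their fold change. The part of base composition in the results was not tested. With the replicate number as a block beside the removal, 1 member was called, where 4.46% of all genes were.

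**Figure D4:**
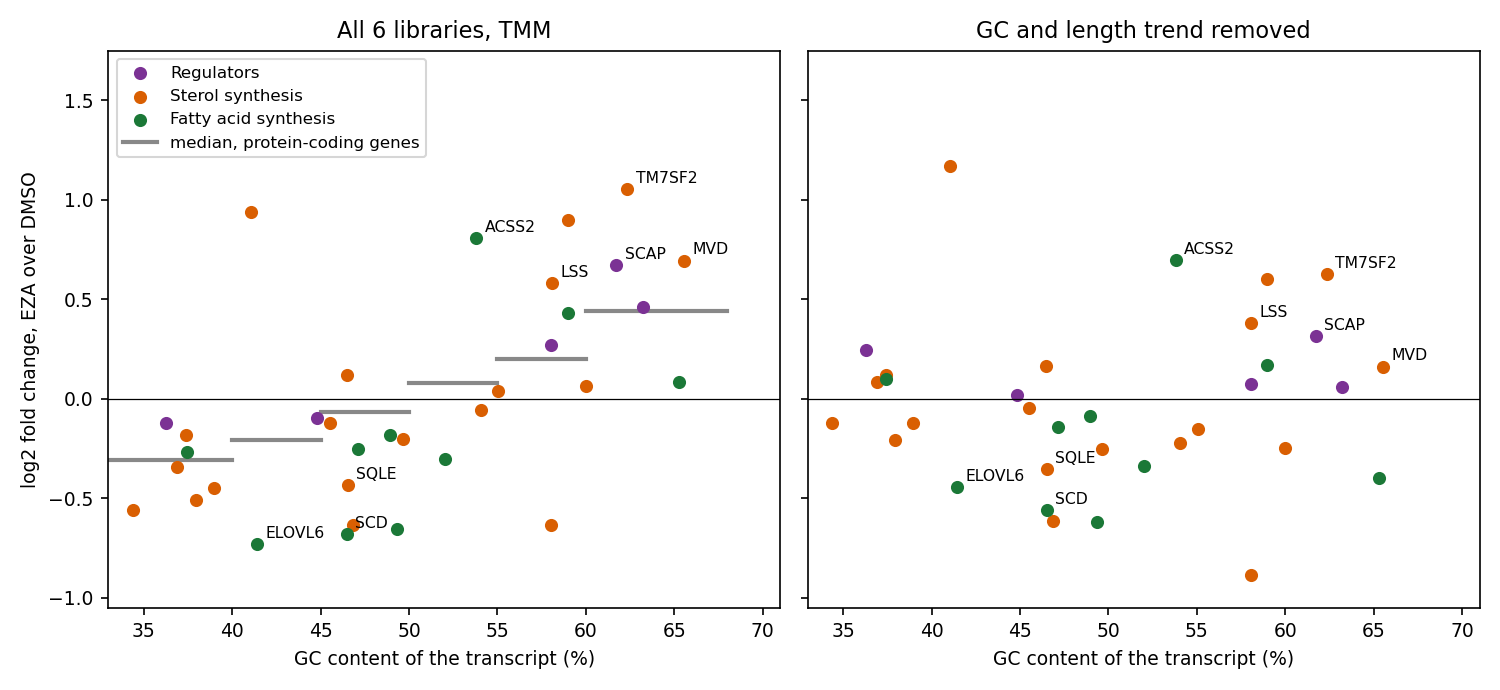
Log2 fold change, EZA over DMSO, of each tested member against its transcript GC content in percent, with all 6 libraries (left, grey lines show the median of protein-coding genes in bins of GC content) and after correction for GC content and length (right). On the left, the 5 members that rose lie at 53.8% GC or more and the 3 that fell at 46.5% or less, on the sides where the grey medians are also positive or negative.

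EZA replicate 3 set the spread of many members, and the count of calls moved with it. Without this library 18 members were called (52.9%, against 38.4% of all genes), 7 higher and 11 lower. The 8 members called with all libraries were called here in the same direction, with TM7SF2 at 1.21, ACSS2 at 0.82, MVD at 0.64, SCAP at 0.42, LSS at 0.40, SQLE at -0.40, ELOVL6 at -0.56 and SCD at -0.58 on the log2 scale. PMVK (0.42) and FADS2 (0.62) joined the higher genes. IDI1 (-0.52), HSD17B7 (-0.48), DHCR7 (-0.38), STARD4 (-0.93), ACACA (-0.33), FADS1 (-0.89), ACSL3 (-0.36) and LPIN1 (-0.37) joined the lower ones. With the trend removed as well, 18 were called, 6 higher and 12 lower, where 38.7% of all genes were. These were not the same 18. SCAP, MVD, PMVK, IDI1 and ACSL3 dropped out. FDFT1 and SC5D joined the higher genes, and ACAT2, EBP and ACLY the lower ones.

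The fold change of FASN was -0.32 without EZA replicate 3, against 0.08 with it, and that of CYP51A1 0.31, against 0.94. Neither passed. Leaving out DMSO replicate 3 left 0 members called by edgeR's test (5 higher and 5 lower at an unadjusted p below 0.05), and leaving out DMSO replicate 1 left 1, where 1.84% and 1.6% of all genes were called. There were 6 without EZA replicate 1, 7 without EZA replicate 2, and 3 without DMSO replicate 2, where 11.4%, 10.6% and 5.71% of all genes were called. ACSS2 was called in 17 of 18 alternative analyses, and its adjusted p was 0.0549 in the remaining one, without DMSO replicate 3. TM7SF2 and SCD were called in 14, MVD and ELOVL6 in 13, SQLE in 11, LSS in 10 and SCAP in 9.

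Outside the 35 genes, 105 other genes of lipid metabolism were listed by function, 89 of them tested, and 14 rose and 2 fell. These 16 are 18% of those tested, close to the 17.7% of all genes. By direction, 15.7% were called higher, where 9.89% of all genes were, and 2.25% lower, where 7.82% of all genes were. Machinery around SREBP cleavage and turnover gave 0 calls among 12 genes in edgeR's test (3 higher and 1 lower at an unadjusted p below 0.05; DESeq2 called 1 higher and 1 lower). In edgeR's test without EZA replicate 3 the calls were 4 higher and 2 lower, where 38.4% of all genes were called. With the GC and length trend taken out they were 2 higher and 0 lower, where 11.4% of all genes were called. With both changes they were 7 higher and 1 lower, where 38.7% of all genes were called. MBTPS1, the protease that makes the first cut in SREBPs, had 211 CPM on average in EZA and 159 CPM in DMSO (log2 fold change 0.41; adjusted p = 0.0541 in edgeR's test). Among 12 other isoprenoid and sterol genes CYB5B, an outer mitochondrial membrane cytochrome, fell, at 90.3 ± 6.58 CPM in EZA and 121 ± 9.20 CPM in DMSO (SD, n = 3 each; adjusted p = 0.0474 in edgeR's test). CYB5B was called in 5 of 18 alternative analyses, and its log2 fold change of -0.42 became -0.17 with the GC and length trend taken out.

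Of 15 tested genes of sterol storage, transport and export, 4 rose (26.7%) and none fell. Over all genes, 9.89% were called higher and 7.82% lower. NPC1, which moves cholesterol out of lysosomes, had 114 ± 17.3 CPM in EZA and 67.7 ± 4.48 CPM in DMSO (SD, n = 3 each; log2 fold change 0.75; adjusted p = 0.0134 in edgeR's test). STARD3, a sterol carrier of late endosomes, had a log2 fold change of 0.63 (adjusted p = 0.0135) and NR1H3, the sterol sensor LXR alpha, one of 0.99 (adjusted p = 0.0289, both edgeR's test). NR1H3 was scarce, at 6.99 CPM in EZA and 3.53 CPM in DMSO. With the GC and length trend removed, 1 of the 15 genes was called, where 11.4% of all genes were. STARD3 and NR1H3 were not called there.

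Of 13 tested further genes of fatty acid synthesis 2 rose (15.4%), where 9.89% of all genes were called higher. MID1IP1, an activator of acetyl-CoA carboxylase, had 98.2 ± 3.06 CPM in EZA and 60.1 ± 6.39 CPM in DMSO (SD, n = 3 each; adjusted p = 0.0108 in edgeR's test). SLC25A1, the mitochondrial citrate carrier, had a log2 fold change of 0.60 (adjusted p = 0.0191 in edgeR's test). SLC25A1 was called in 13 of 18 alternative analyses but in none with the GC and length trend removed. Its lowest value over the alternatives was 0.09. Of 17 tested genes of acyl-CoA and glycerolipid synthesis 3 rose (17.6%), namely GPAT3 by 1.13 (adjusted p = 0.00702), DGAT1 by 0.78 (adjusted p = 0.00796) and AGPAT2 by 0.51 on the log2 scale (adjusted p = 0.0392, all edgeR's test). AGPAT2 was called in 8 of 18 alternative analyses and its value was -0.0472 after correction for GC content and length. GPAT3 starts and DGAT1 ends triglyceride synthesis.

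Of 15 tested genes of fatty acid oxidation 4 rose (26.7%) and none fell, where 9.89% of all genes were called higher and 7.82% lower. In 12 the fold change was positive, and the median over the 15 was 0.18 on the log2 scale, beside -0.01 for all genes. With the GC and length trend removed, 1 of the 15 was called, where 11.4% of all genes were. The median over the 15 was then 0.25, beside 0.01 for all genes. ACADS, the short-chain acyl-CoA dehydrogenase, had 51.9 ± 4.85 CPM in EZA and 29.2 ± 1.37 CPM in DMSO (SD, n = 3 each; adjusted p = 0.00724 in edgeR's test). ACADVL, its very-long-chain counterpart, rose by 0.71 (adjusted p = 0.00989) and ETFB, an electron carrier, by 0.79 (adjusted p = 0.0197, both edgeR's test). Of 5 tested subunits of AMPK, the kinase that restrains ACACA, PRKAG2 rose by 0.51 (adjusted p = 0.0289) and the catalytic PRKAA1 fell by 0.65 (adjusted p = 0.0260, both edgeR's test). With the GC and length trend removed, NPC1 (0.80), MID1IP1 (0.56), GPAT3 (1.21), DGAT1 (0.38), ACADVL (0.47) and PRKAG2 (0.59) were still called, which is 6 of the 16 genes called with all libraries. ACADS, ETFB and PRKAA1 were not.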

How the data were processed

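For each of 6 libraries the authors deposited raw counts of Ensembl genes and, in further columns, FPKM. Libraries were poly(A)-selected, not stranded and sequenced together, per the labels' protocols and the series' design text. Per the submitters' processing notes, FastQC, HISAT2, featureCounts and DESeq2 were used on GRCh38 (hg38). No source used here gives versions, options or annotation.

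Of 58735 identifiers, 58207 were found in GENCODE 44, which gave positions, GC content and length. Groups came from sample titles. Genes passing filterByExpr were scaled by TMM and tested two-sided on counts with edgeR's robust quasi-likelihood test (R 4.3.3, edgeR 4.0.16) without covariates, and p-values of 13503 genes were adjusted by Benjamini-Hochberg. The F statistic gave the standard errors. CPM use TMM-scaled totals of tested genes, except the marker sums and the limits of ELOVL5, which use each library's total count. The common biological coefficient of variation was 18.4%. FPKM were used for levels per length and, through the totals they imply, for an alternative scaling. Replicates differed by more than counting noise in both groups (chi-square per degree of freedom 14.2 to 127 in EZA and 5.10 to 13.2 in DMSO), so none was counted as a copy.

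The 18 alternatives comprised other scalings and filters, DESeq2 1.42.0, limma-voom (limma 3.58.1), the replicate number as a block, a lowess correction (span 0.3) for GC content and length, alone and combined, mitochondrial genes left out, and each library left out. The test was tested on simulated data. All members are accounted for. Regulators and called members were named with every library, and of each other list up to 3 called genes per direction with the smallest adjusted p. Genes named outside this rule (MBTPS1, LBR, SCD5 and overlapping genes) were picked with their values in view. The members and lists were chosen with earlier results of these data known. Counts of overlapping genes or near-identical copies are uncertain.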

Additional observations from a re-analysis of the deposited data

How the results depend on the processing

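Against 8 members called (5 higher, 3 lower), 2392 genes and 16 other lipid genes, the counts moved by more than 1.5 times in these settings. Scaling by library size alone and limma-voom each gave 3 higher members. Without a filter on low counts, 15 members were called, 8 higher and 7 lower. These were 44.1% of the members tested, against 12.2% of 27291 genes. That wider set holds scarce genes left out of the main test, so the 2 shares are over unlike sets. With the GC content and length trend removed, 1538 genes, 3 members (1 higher) and 8 other lipid genes were called. With that removal and the replicate block, 602 genes, 1 member (1 higher and 0 lower in edgeR's test, 4 higher and 6 lower at an unadjusted p below 0.05) and 2 other lipid genes were called. With that removal and without EZA replicate 3, 5329 genes, 18 members (12 lower) and 45 other lipid genes were called. Over the analyses that left out 1 library, 220 to 5289 genes, 0 to 18 members (0 to 7 higher, 0 to 11 lower) and 0 to 42 other lipid genes were called, with the lowest member counts without DMSO replicate 1 or 3 (22 other lipid genes at an unadjusted p below 0.05 without DMSO replicate 3) and the highest without EZA replicate 3. DESeq2 moved none of these counts by more than 1.5 times and called 11 members (32.4%, against 21.9% of all genes).

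The replicate block alone gave 7 members, of which SQLE was no longer one, and 1970 genes. Same-numbered samples did not deviate together (correlations 0.033, -0.175 and 0.027). EZA replicates 2 and 3 did not correlate best with their own numbers, so the numbers were not taken as pairs. Of values past the threshold in either analysis, 4 changed sign. With the trend removed, AGPAT2 turned to -0.0472 on the log2 scale, with the block added to -0.0481 and without EZA replicate 3 to -0.00758, and SC5D turned to 0.42 with the trend removed and without EZA replicate 3. Members that were not called changed sign in up to 11 cases in the settings with the trend removed and in at most 2 in the others. The cause was not tested. With 3 libraries a group precision was limited, as in FASN, whose 95% interval ran from -0.60 to 0.76 on the log2 scale.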
